A study of Mus musculus with 12 samples.

Results

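The 9 genes described here control how pyruvate enters the mitochondrion and is oxidised there, and how glutamine is made. They are the pyruvate dehydrogenase kinases Pdk1, Pdk2, Pdk3 and Pdk4, the phosphatase Pdp1, the catalytic subunit gene Pdha1, the mitochondrial pyruvate carrier subunits Mpc1 and Mpc2, and glutamine synthetase, Glul. They were taken by gene symbol, 9 of 28995 genes listed in at least 1 deposited table, and each symbol matched 1 protein-coding gene in all 3 tables. The set was chosen by measured values, the differences of aldosterone from vehicle and from spironolactone seen in earlier work on these tables, so the members' values in those comparisons are a description and carry no test. The comparison of spironolactone with vehicle, and that of the 2 sample numbers, were not used to choose them and are tested.

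Bulk poly(A) RNA sequencing was done on fibroblasts taken from the hindlimb muscles of 3-day-old wild-type mice of genotype C57 BL/10, used at passage 2. Every culture was moved to medium with charcoal-stripped serum 24 hours before treatment, which removes steroids, and was then kept for 48 hours in 1 µM aldosterone, 1 µM spironolactone or vehicle (DMSO). Aldosterone is an agonist of the mineralocorticoid receptor and spironolactone an antagonist of it. There were 4 libraries per treatment from 2 mice, with 2 plates per mouse and treatment. A library is named here by its sample number and its biological replicate number (1-1, 1-2, 2-1 and 2-2). Which of these numbers stands for the mouse is not stated, so plates of 1 mouse are counted as separate samples and p-values partly measure the spread between plates.

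Pyruvate dehydrogenase joins glycolysis to the tricarboxylic acid cycle by turning pyruvate into acetyl-CoA. The kinases phosphorylate the subunit encoded by Pdha1 and switch the complex off, while the phosphatases remove the phosphate and switch it on. Pdk4 is the isoform best known for its induction in skeletal muscle in fasting and by glucocorticoids, and FoxO factors and PPARs are among its regulators. Glul joins ammonia to glutamate, and it is also a well-known glucocorticoid-induced gene in skeletal muscle.

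The 12 libraries held from 19136923 to 30219185 reads on genes (median 23833379.5). The values are normalized counts, which are read counts divided by a size factor of the library. The fibroblast genes Col1a1, Col1a2, Vim and the others of a list of 9 were at high levels in every group. Their sum lay between 1017475 and 1137766 with aldosterone and between 1175529 and 1271382 with vehicle. Col1a1 (mean 458536 against 577212), Col1a2, Col3a1, Pdgfrb, Thy1, Dcn and Lum had lower means with aldosterone. Vim (192301 against 137509) and Pdgfra (5983 against 3186) had higher ones. Of 9 myogenic markers, Pax7, Myf5 and Ckm were at 0 in the aldosterone libraries, and Myf5 and Ckm were also at 0 with vehicle. The sum of that list lay between 213 and 457 with aldosterone and between 527 and 789 with vehicle, mostly from Acta1 (mean 239 against 545). Des averaged 75.6 against 99.6, while Myh3 was higher with aldosterone (11.5 against 8.72). As a check of the treatment labels, Fkbp5, a chaperone gene induced by steroid receptors, averaged 6407 ± 484 (SD, n = 4) with aldosterone, 334 ± 39.0 with vehicle and 401 ± 66.2 with spironolactone. Tsc22d3 and Per1, which are also induced by steroid receptors, had log2 fold changes of 2.69 ± 0.05 and 1.83 ± 0.06 (SE) against vehicle.

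Levels can be compared between genes only per length, so the normalized count was divided by the length of the gene model in kb. This is the annotated length, for example 7779 bases for Pdk1, 7344 for Mpc2 and 2561 for Pdk3. The lengths of the transcripts present in these cells were not measured. The order of genes, the percentiles, the kinase shares and the ratios between genes given below depend on this divisor, and the fold changes do not. In vehicle-treated fibroblasts Pdha1 had the highest level of the 9, at 1142 ± 34.3 per kb (SD, n = 4). Pdk3 followed at 460 ± 25.9 per kb and Pdp1 at 303 ± 86.4 per kb. Pdk2 and Glul came next, at 188 ± 13.6 and 172 ± 16.2 per kb, and their libraries overlapped. Pdk1 was at 140 ± 6.87 per kb and Mpc2 at 109 ± 5.11 per kb. Pdk4 (81.8 ± 8.40 per kb) and Mpc1 (80.4 ± 7.52 per kb) were lowest and overlapped each other. All other neighbours in this order had no overlapping libraries. With aldosterone, Glul moved from the fifth place to the first, at 1505 ± 34.1 per kb, and Pdk4 from the eighth to the fourth, at 542 ± 23.3 per kb and overlapping Pdp1. Against all genes whose group mean reached 10 normalized counts, Glul stood at percentile 63.2 by level per kb with vehicle and at percentile 95.6 with aldosterone, and Pdk4 at 44.5 and 86.1.

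**Figure D1:**
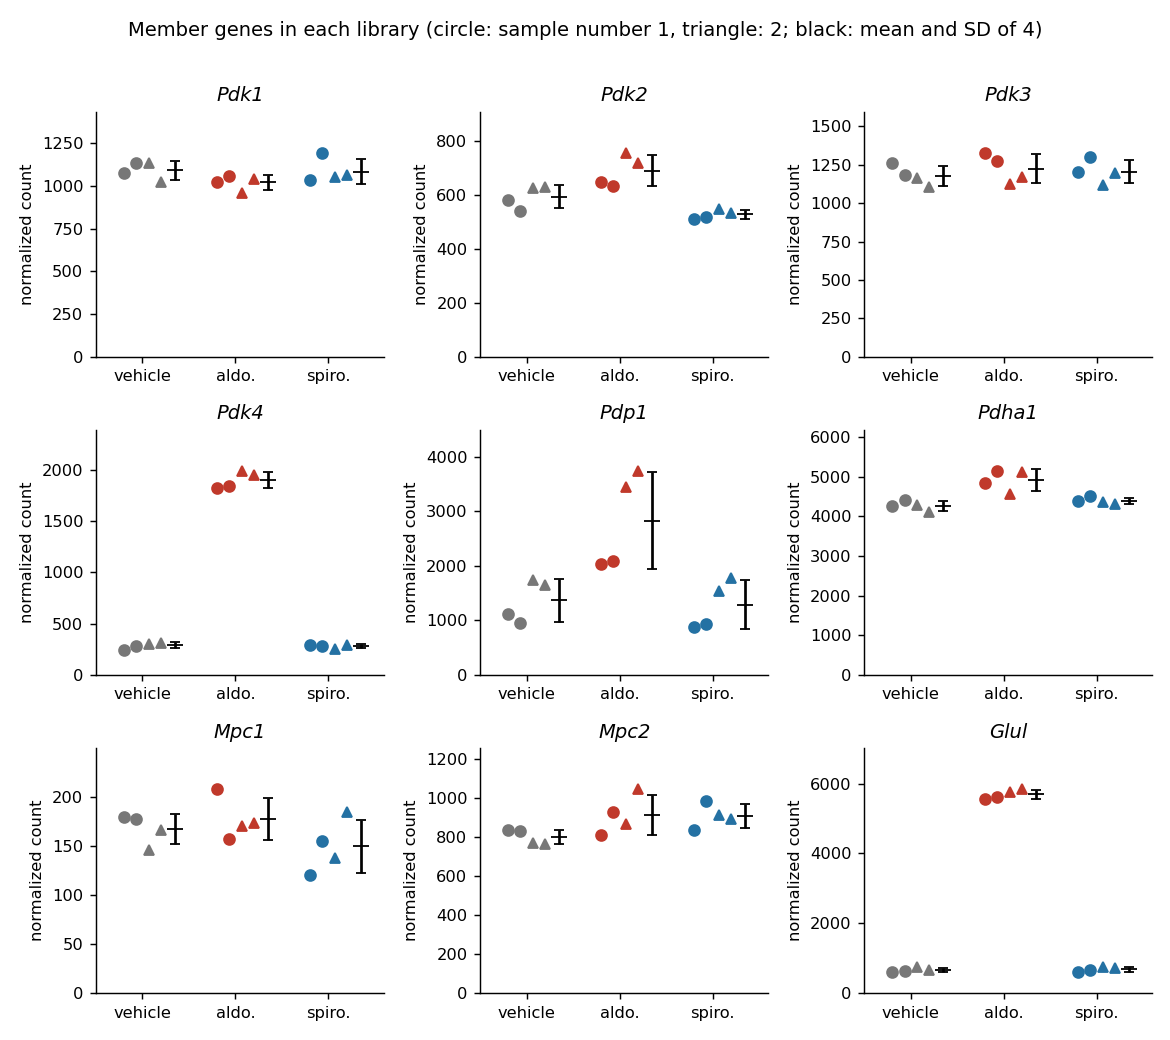
Normalized count of each of the 9 members (vertical axes, from 0) in the 12 libraries, by treatment, with circles for sample number 1 and triangles for sample number 2. Black marks give the mean and SD of 4 libraries. Glul and Pdk4 with aldosterone lie far above the other treatments, and Pdp1 splits by sample number in every treatment.

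Among the kinases, Pdk4 was the member set apart by treatment. Pdk4 (chromosome 6, 5483351 to 5496309, minus strand, in the coordinates of the deposited tables) had normalized counts of 1824, 1839, 1989 and 1953 in the aldosterone libraries. The vehicle libraries had 247, 285, 301 and 315, and the spironolactone libraries 289, 284, 253 and 290. The lowest aldosterone library was thus far above the highest of the other 8, while vehicle and spironolactone overlapped. The fitted log2 fold change was 2.73 ± 0.08 (SE) against vehicle and 2.76 ± 0.07 against spironolactone, 6.62-fold and 6.80-fold.

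The other kinases stayed close to their vehicle levels. Pdk2, a broadly expressed isoform, had 650, 635, 757 and 720 normalized counts with aldosterone, 582, 540, 628 and 630 with vehicle, and 510, 521, 551 and 534 with spironolactone. Every aldosterone library was above every library of the other treatments, by a small margin over vehicle. Its log2 fold change was 0.21 ± 0.08 against vehicle and 0.38 ± 0.07 against spironolactone. Pdk1, known as a target of hypoxia-inducible factor, had a log2 fold change of -0.10 ± 0.06 against vehicle, and its 12 libraries lay between 962 and 1194 normalized counts. Pdk3 had a log2 fold change of 0.05 ± 0.07 against vehicle and lay between 1104 and 1327 in all libraries.

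These values change the make-up of the kinase transcripts. Summed per kb over the 4 genes, the kinase level was 870 ± 17.3 with vehicle (SD, n = 4), 1369 ± 7.16 with aldosterone and 857 ± 37.7 with spironolactone. Pdk4 made up 9.41% ± 1.09 of this sum with vehicle, 39.5% ± 1.67 with aldosterone and 9.27% ± 0.477 with spironolactone. Pdk3 was the largest part with vehicle, at 52.8% ± 2.33, and made up 34.9% ± 2.68 with aldosterone. Between spironolactone and vehicle, neither the sum (difference -13.1 per kb, two-sided exact permutation test, p = 0.543) nor the Pdk4 share (difference -0.134 percentage points, p = 0.943, same exact test) differed beyond the spread. Adjusted over the 3 measures tested this way, p was 0.900 and 0.943, and the smallest p that 4 against 4 libraries allow is 0.0286. These tests pooled the sample numbers, and differences within a sample number were not tested.

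**Figure D2:**
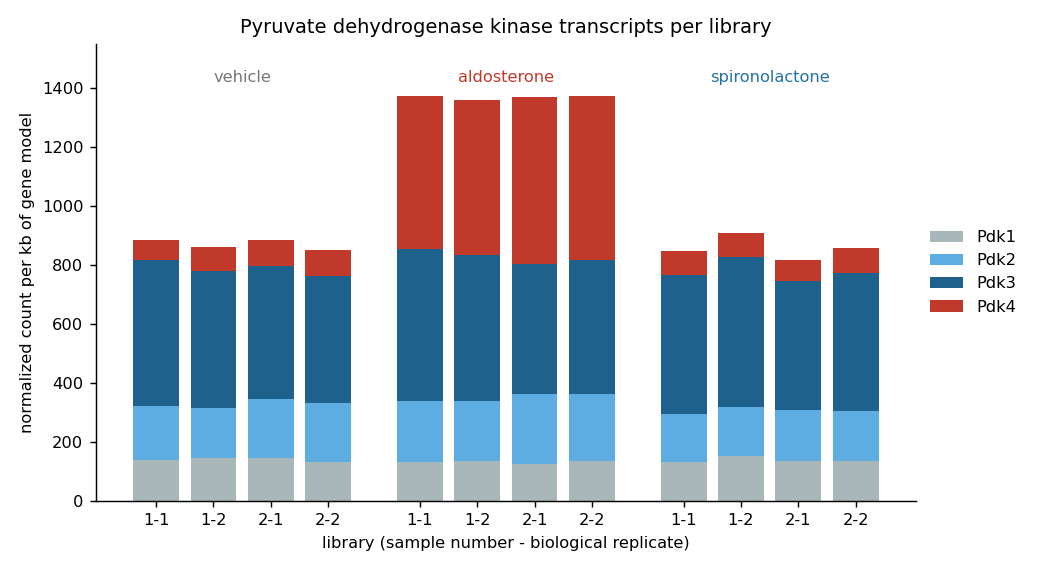
Normalized count per kb of gene model for Pdk1, Pdk2, Pdk3 and Pdk4, stacked, in each of the 12 libraries (horizontal axis, sample number and biological replicate). The sum is between 1359 and 1375 in the aldosterone libraries and between 818 and 908 in the other 8, and most of the added height is the Pdk4 segment, with means of 542 per kb with aldosterone and 81.8 with vehicle.

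Pdp1, which encodes a catalytic subunit of the pyruvate dehydrogenase phosphatase and so acts against the kinases, was also higher with aldosterone. Pdp1 (chromosome 4, 11958184 to 11966452, minus strand) had 2036, 2089, 3443 and 3734 normalized counts in aldosterone libraries 1-1, 1-2, 2-1 and 2-2. In the same order it had 1111, 955, 1746 and 1642 with vehicle and 870, 936, 1544 and 1784 with spironolactone. All aldosterone libraries were above all others, but sample number 2 was the higher in each treatment. The log2 fold change was 1.04 ± 0.20 against vehicle and 1.15 ± 0.21 against spironolactone, and in a fit with a replicate block for sample number the SE against vehicle was 0.05. Within sample number 1 the mean with aldosterone was 2.00-fold that of vehicle, and within sample number 2 it was 2.12-fold. Of the other phosphatase genes, neither the second catalytic subunit Pdp2 (log2 fold change 0.06 ± 0.14 against vehicle) nor the regulatory subunit Pdpr (0.00 ± 0.07) passed the test. Both are given though outside the rule for named genes, and were picked after their values were seen.

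Because Pdk4 and Pdp1 were both higher, the ratio of the kinase sum to Pdp1, per kb, was 3.07 ± 0.897 with vehicle (SD, n = 4), 2.36 ± 0.732 with aldosterone and 3.33 ± 1.22 with spironolactone, with overlapping libraries in all treatments. Within sample number 1 it was 3.60 and 4.06 with vehicle and 3.04 and 2.93 with aldosterone, and within sample number 2 it was 2.28 and 2.34 with vehicle and 1.79 and 1.66 with aldosterone. The ratio of Pdk4 alone to Pdp1 was 0.284 ± 0.0713 with vehicle and 0.923 ± 0.252 with aldosterone. The ratio of the kinase sum to Pdp1 with spironolactone was 4.39 and 4.37 within sample number 1, above both vehicle libraries of that number, and 2.39 and 2.16 within sample number 2, where the groups overlapped. Over all 8 libraries, with the sample numbers pooled, the difference of this ratio between spironolactone and vehicle had p = 0.600 (two-sided exact permutation test, adjusted 0.900), and the difference within sample numbers was not tested.

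Pdha1, the target of these kinases and phosphatases, had 4841, 5141, 4561 and 5115 normalized counts with aldosterone, 4249, 4420, 4278 and 4107 with vehicle, and 4381, 4504, 4350 and 4315 with spironolactone. The aldosterone libraries were all higher, with a log2 fold change of 0.20 ± 0.05 against vehicle and 0.16 ± 0.05 against spironolactone. Its gene on chromosome X (158905205 to 158921409, minus strand) overlaps Map3k15 on the opposite strand, which averaged 48.8 normalized counts with vehicle and 45.3 with aldosterone. The other subunit genes of the complex, Dlat, Dld, Pdhb and Pdhx, were listed for comparison, and 0 of 4 passed the test in any of the treatment comparisons (limma). Their median log2 fold change against vehicle was -0.02, against -0.01 over all genes.

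The carrier that brings pyruvate into the mitochondrion is a pair of the Mpc1 and Mpc2 proteins. Mpc1 had 208, 157, 170 and 174 normalized counts with aldosterone, 180, 178, 146 and 166 with vehicle, and 120, 155, 138 and 185 with spironolactone, and all 3 groups overlapped. Mpc2 had 809, 929, 864 and 1045 with aldosterone, 834, 830, 769 and 766 with vehicle, and 835, 985, 911 and 891 with spironolactone. Its vehicle libraries lay at the low end, and aldosterone overlapped both other groups. The log2 fold changes against vehicle were 0.08 ± 0.12 for Mpc1 and 0.18 ± 0.08 for Mpc2.

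Glul showed the largest difference of the 9. Glul (chromosome 1, 153775690 to 153785469, plus strand) had 5557, 5619, 5759 and 5839 normalized counts in the aldosterone libraries. It had 611, 614, 742 and 642 with vehicle and 592, 662, 734 and 701 with spironolactone. The aldosterone libraries were close to each other and far from the other 8, which overlapped. The log2 fold change was 3.13 ± 0.06 against vehicle and 3.08 ± 0.07 against spironolactone, 8.74-fold and 8.48-fold. Teddm2 overlaps Glul on the opposite strand and averaged 4.78 normalized counts with vehicle and 12.2 with aldosterone. Whether the counting used the strand is not given in the sources used here.

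The promoters of Pdk4 and Glul are shown because these 2 members moved together and furthest. Each is the 300-base window from RefSeq on build GRCm38.p6, which runs from 250 bases before the start site to 50 after it, and 8 of the 9 members had at least 1 such window, with none for Pdp1. Both strands were searched for AGAACA, a core element bound by steroid receptors, for GTAAACA, a FoxO motif, and for AGGTCA, a core element of other nuclear receptors. Capitals mark matches.
Pdk4, chr6:5496229-5496528, minus strand: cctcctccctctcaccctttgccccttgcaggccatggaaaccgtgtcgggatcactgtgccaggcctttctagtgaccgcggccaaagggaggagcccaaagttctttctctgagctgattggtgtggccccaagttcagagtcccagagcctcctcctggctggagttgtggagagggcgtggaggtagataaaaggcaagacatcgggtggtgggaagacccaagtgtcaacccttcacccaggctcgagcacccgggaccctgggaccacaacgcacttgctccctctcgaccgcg
Glul, chr1:153899679-153899978, plus strand: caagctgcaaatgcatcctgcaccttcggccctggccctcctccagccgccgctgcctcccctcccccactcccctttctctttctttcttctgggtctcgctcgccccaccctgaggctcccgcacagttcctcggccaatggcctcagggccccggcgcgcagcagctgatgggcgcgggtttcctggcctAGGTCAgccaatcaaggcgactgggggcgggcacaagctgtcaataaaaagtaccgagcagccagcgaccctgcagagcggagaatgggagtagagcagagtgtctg
The Pdk4 window held none of the 3 motifs. The Glul window held AGGTCA once, starting 57 bases before the start site. Of 32851 promoter windows of the same length, 19.0% held AGAACA, 3.65% GTAAACA and 16.3% AGGTCA on either strand. Among the windows of the other members, AGAACA was found 2 times in the second window of Pdk1 and AGGTCA once in the second window of Mpc1. These are matches of letters only.

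Against all genes, the members' calls were these. In aldosterone against vehicle, 5.68% of 27319 genes were higher and 4.74% lower at an adjusted p of at most 0.05 (limma with Benjamini-Hochberg adjustment over all genes), and 2.06% also changed by at least 1 on the log2 scale. Of the 9 members, 4 were called higher (Pdk4, Pdp1, Pdha1 and Glul), 0 were called lower, and 3 passed the fold threshold. In aldosterone against spironolactone, 4.93% of genes were higher, 3.96% were lower and 1.9% passed both thresholds. There 4 members were called higher (Pdk2, Pdk4, Pdp1 and Glul) and 3 passed the fold threshold. When sample number was a replicate block, 5 members were called in each comparison, with Pdk2 added in the first and Pdha1 in the second. Of all genes, the block fit called 2371 higher and 2192 lower of 27319 against vehicle, and 2095 and 1879 of 27631 against spironolactone. Pdha1 was also called against spironolactone by edgeR and DESeq2. These 2 comparisons share the aldosterone libraries. The members' median log2 fold change was 0.20 against vehicle and 0.25 against spironolactone, with -0.01 over all genes in both. Since this contrast chose the members, nothing is read from these counts.

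Some calls changed when 1 library was left out of the fits without sample number. Pdp1 then lost its call against vehicle in 6 of 8 fits and Pdha1 in 7 of 8. The log2 fold change of Pdp1 stayed between 0.88 and 1.18 in these 8 fits and that of Pdha1 between 0.18 and 0.24, and both were called in the fit of all 8 libraries with the replicate block. Pdp1 kept its call only without vehicle 2-1 or aldosterone 1-1, and Pdha1 only without aldosterone 2-1. Against spironolactone, Pdp1 lost its call in 6 of 8 such fits, and kept it without aldosterone 1-1 or spironolactone 2-2. The direction did not change in any of these fits. Since these contrasts chose the members, the calls kept or lost describe the fits and carry no test.

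**Figure D3:**
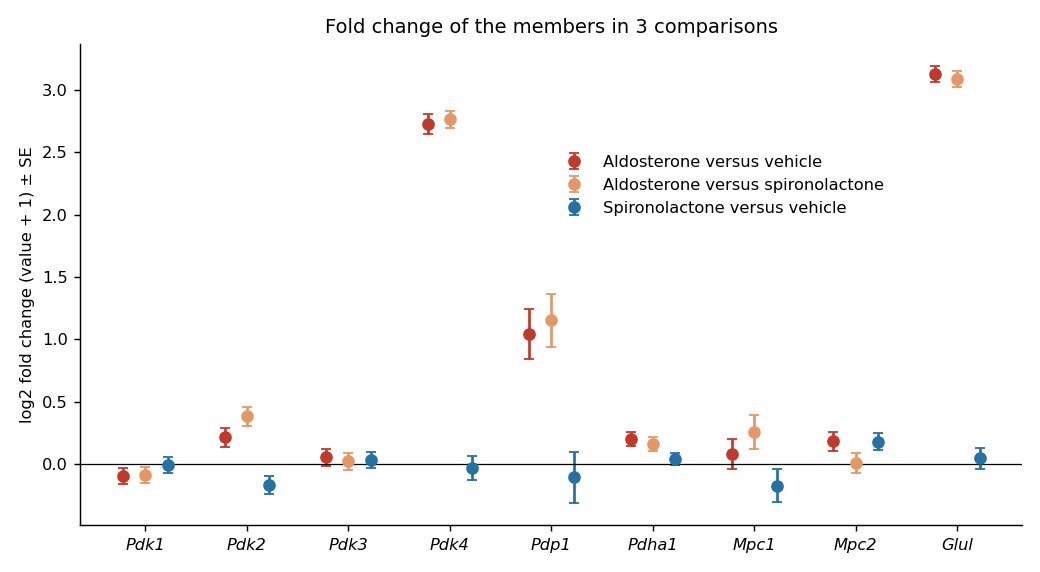
Log2 fold change (of the normalized count + 1) with its SE for each member in 3 treatment comparisons, n = 4 libraries per group. Glul (3.13 and 3.08), Pdk4 (2.73 and 2.76) and Pdp1 (1.04 and 1.15) stand apart in the comparisons with aldosterone, and the values of spironolactone against vehicle lie within 0.18 of 0.

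Spironolactone alone, in steroid-stripped medium, gave no call among the members. Of 27598 genes, 0% were called higher and 0% lower by limma, 1251 had an unadjusted p under 0.05, 0 were called by edgeR, and DESeq2 called 12 higher and 1 lower. A replicate block for sample number gave 63 genes higher and 34 lower, with 0 members among them. Of the 9 members, 0 were called by limma, edgeR or DESeq2. The 95% confidence interval of the log2 difference was -0.24 to 0.17 for Pdk4, -0.13 to 0.22 for Glul and -0.54 to 0.32 for Pdp1. When sample number was a replicate block, the interval for Pdp1 narrowed to -0.22 to 0.01. An unadjusted p under 0.05 was found for Pdk2, with a log2 difference of -0.17 (adjusted p = 0.934, limma), and Mpc2, with 0.18 (adjusted p = 0.934, limma). The lowest spironolactone library of Mpc2 had 835 normalized counts and the highest vehicle library 834. How many of all genes had no overlap between these groups was not counted, so nothing is read from this. Their intervals were -0.32 to -0.01 and 0.04 to 0.32, and those of the other 4 members lay between -0.46 and 0.17.

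The sample numbers give a second comparison that did not choose the members. In the vehicle and spironolactone libraries, with treatment in the fit, 4.04% of 27598 genes were higher and 4.13% lower in sample number 2. If the number stands for the mouse, plates of the same mouse are counted as replicates in this fit. Its p-values would then measure the spread between plates and not between mice. Of the 9 members, Pdp1 alone was called, with a log2 difference of 0.80 ± 0.06 (SE; adjusted p = 8.62e-14, limma), and it ranked 44th of all genes by p. Its mean was 1679 in sample number 2 and 968 in sample number 1, and no library of one overlapped the other. The aldosterone libraries, which this fit left out, showed the same order, with 1.74-fold more in sample number 2. The next member was Glul, at 0.18 ± 0.06 (adjusted p = 0.0658, limma), and edgeR on the recovered reads called it (adjusted p = 0.0495). The other 7 had log2 differences between -0.11 and 0.12 and were not called. Pdk2, which was not called, had values of 1.12-fold, 1.15-fold and 1.05-fold in sample number 2 with vehicle, aldosterone and spironolactone, and Pdk3, also not called, had 0.926-fold, 0.881-fold and 0.924-fold. A test of whether the treatment effect differed between the sample numbers found 0 of 9 members in any treatment comparison, with adjusted p of at least 0.895 (limma). The same test called 4 genes overall in each comparison with aldosterone.

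**Figure D4:**
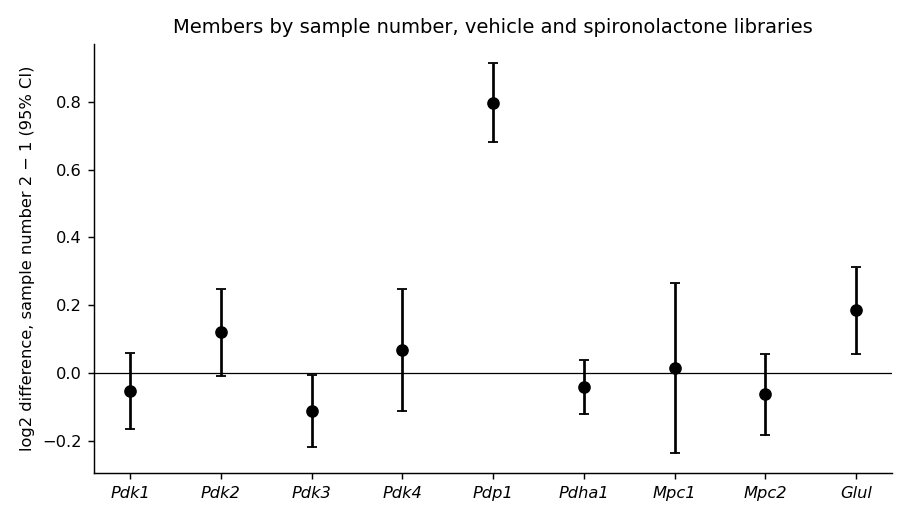
Log2 difference of each member between sample number 2 and sample number 1 (vertical axis) in the vehicle and spironolactone libraries, with its 95% confidence interval, 4 libraries per number. Pdp1 stands at 0.80, and the other 8 members lie between -0.11 and 0.18.

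Other genes of the same pathways were taken from lists of 99 genes in all. Against vehicle, 13 were higher and 11 lower with aldosterone, and against spironolactone 13 were higher and 12 lower (limma). Over all genes 5.68% were higher and 4.74% lower against vehicle, and 4.93% and 3.96% against spironolactone. In the fit of genes with a mean of at least 10, 1620 of 15245 were higher and 1413 lower against vehicle. Against spironolactone 1400 of 15300 were higher and 1171 lower. Whether the lists, together or singly, differ from such genes was not tested. Between spironolactone and vehicle 0 of 99 were called, with 3 at an unadjusted p under 0.05. When sample number was a replicate block, 41 were called against vehicle, beside 2371 higher and 2192 lower of all 27319 genes.

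In pyruvate supply and disposal, 1 of 11 genes rose and 2 fell against vehicle. Pcx, the pyruvate carboxylase that makes oxaloacetate, increased by 0.45 ± 0.08 in log2 units (adjusted p = 0.00165, limma) from a mean of 1212 to 1644 normalized counts. Me1, the cytosolic malic enzyme that makes pyruvate, fell by 0.46 ± 0.07 (adjusted p = 0.000214, limma). Slc16a1, a transporter of lactate and pyruvate, fell by 0.33 ± 0.07 (adjusted p = 0.00326, limma). The 3 genes moved the same way against spironolactone, with log2 fold changes of 0.42, -0.42 and -0.30. Pcx lost its call without vehicle 1-1, aldosterone 2-1 or aldosterone 2-2, with an adjusted p up to 0.0596.

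In glycolysis and the tricarboxylic acid cycle a single gene of each list was called. Pfkp, a phosphofructokinase, rose by 0.31 ± 0.07 (adjusted p = 0.00779, limma), and Idh2, the mitochondrial isocitrate dehydrogenase that makes NADPH, by 0.47 ± 0.08 (adjusted p = 0.00105, limma), as 1 of 17 genes each. When sample number was a replicate block, 7 glycolysis genes were called, 5 higher and 2 lower, and 4 cycle genes, all higher. In that fit 2371 of all 27319 genes were higher and 2192 lower. Pfkp lost its call in 4 of 8 fits with 1 library left out (vehicle 2-1 and 2-2, aldosterone 1-1 and 1-2), and Idh2 in 2 of 8 (vehicle 1-1, aldosterone 2-1). Gapdh, another glycolysis gene, ranged from 122 to 3002 normalized counts, with the treatments overlapping, and since its reads can be shared with near-identical copies its level is uncertain. Aldoa is listed under 2 gene identifiers, and the one with the higher mean was used.

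Among glutamine and glutamate genes, 3 of 19 rose and 6 fell against vehicle. Slc1a5, a glutamine transporter, rose by 0.76 ± 0.08 (adjusted p = 1.1e-05, limma), with 9436, 8775, 7625 and 7291 normalized counts with aldosterone and 5157, 5357, 4241 and 4756 with vehicle. Slc7a11, the cystine and glutamate exchanger, fell by 0.49 ± 0.12 (adjusted p = 0.0143, limma), and Slc7a5, a transporter of large neutral amino acids, by 0.38 ± 0.06 (adjusted p = 0.000312, limma). The call of Slc7a11 was lost in 7 of 8 fits with 1 library left out (all but vehicle 1-1). The list's median log2 fold change was -0.11. With the block 5 of the list were higher and 8 lower, beside 2371 and 2192 of all 27319 genes.

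Of the fatty acid oxidation genes and PPAR targets, 5 of 19 rose and 2 fell against vehicle. Acot1, an acyl-CoA thioesterase, rose by 0.91 ± 0.17 (adjusted p = 0.00181, limma). Ucp2, a mitochondrial carrier, fell by 0.67 ± 0.20 (adjusted p = 0.0401, limma). Ucp2 lost its call in 7 of 8 fits with 1 library left out and kept it without aldosterone 1-2.

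Of 10 transcription factors and coactivators tied to Pdk4, 2 rose and 1 fell against vehicle. Foxo3 rose by 0.55 ± 0.08 (adjusted p = 0.000198, limma), from a mean of 2157 to 3162 normalized counts, and Foxo4 by 0.36 ± 0.07 (adjusted p = 0.0024, limma). Nr3c1, which encodes the glucocorticoid receptor, fell by 0.41 ± 0.05 (adjusted p = 6.48e-05, limma). It had 2744, 2926, 2943 and 3040 normalized counts with vehicle and 2210, 2204, 2105 and 2265 with aldosterone. Against spironolactone Pparg was also called, at 0.54 ± 0.10 (adjusted p = 0.00212, limma). Nr3c2, which encodes the mineralocorticoid receptor, had 7.85, 14.6, 14.0 and 22.2 normalized counts in aldosterone libraries 1-1, 1-2, 2-1 and 2-2. In the same order it had 16.96, 22.7, 54.3 and 57.6 in the vehicle libraries. Within each sample number both aldosterone libraries were below both vehicle libraries. The log2 fold change was -1.21 ± 0.42 and did not pass the test (adjusted p = 0.0853, limma), but did with the replicate block (adjusted p = 0.00794, limma). Nr3c2 averaged 20.4 normalized counts in sample number 1 and 45.3 in sample number 2 of the vehicle and spironolactone libraries, a log2 difference of 1.07 ± 0.28 (adjusted p = 0.00838, limma), and lost this call in 7 of 8 fits with 1 library left out (all but spironolactone 2-2).

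**Figure D5:**
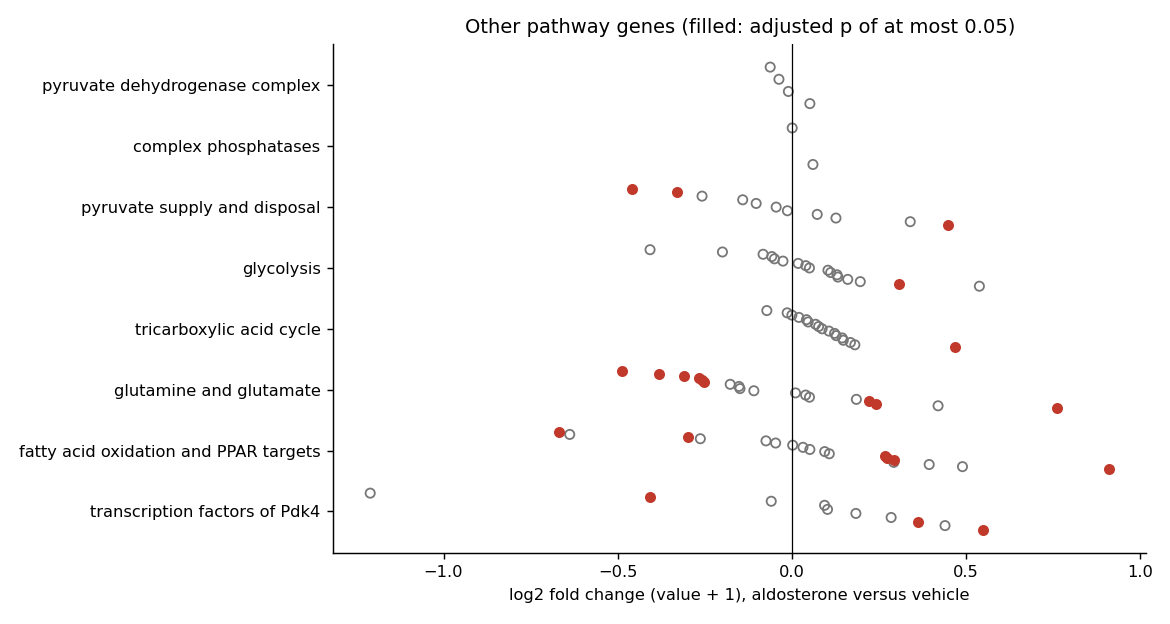
Log2 fold change of 97 other pathway genes between aldosterone and vehicle (horizontal axis), by list, with filled points for genes at an adjusted p of at most 0.05 (limma). Slc1a5 (0.76) and Acot1 (0.91) are the farthest filled points on the right, and the pyruvate dehydrogenase complex subunits lie close to 0.

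By sample number, 8 of the 99 were higher and 20 lower in sample number 2, beside 4.04% and 4.13% of all genes. In the fit of genes with a mean of at least 10, 1172 of 15226 were higher and 1236 lower. If the number stands for the mouse, the p-values given here measure the spread between plates and not between mice. Pkm, the pyruvate kinase that makes pyruvate, was lower by 0.29 (log2 difference -0.29 ± 0.04, adjusted p = 3.39e-07, limma), and Slc16a3, the lactate exporter, had -0.47 ± 0.06 (adjusted p = 1.95e-07, limma). Of the glycolysis genes 6 of 17 were lower and 0 higher, with Pgk1 at -0.29, Pgam1 at -0.27 and Hk2 at -0.22. Calls of Slc16a3 and Pgk1 were lost without spironolactone 1-2, that of Pgam1 without it or vehicle 1-1, and that of Hk2 in 6 of 8 fits with 1 library left out (all but spironolactone 1-1 and 2-1). In pyruvate supply and disposal 2 of 11 genes were higher and 3 lower. In the tricarboxylic acid cycle 1 of 17 was higher and 5 lower. Genes called higher in sample number 2 included Pcx, Idh2, Lpl, Slc7a11, Ppargc1a and Nr3c2. With 1 library left out, calls of Pcx, Idh2 and Lpl were lost in 6 of 8 fits, of Ppargc1a and Nr3c2 in 7, and of Slc7a11 in 8. Some genes were thus lower and some higher where Pdp1 was higher, and any part they have in one another was not tested.

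The genes whose pattern over the 12 libraries was most like that of a member were found by Pearson's r of log2(value + 1), given as a description over libraries that share treatment. For Glul they were Tsc22d3 (r = 0.998), Ndrg2 (0.998) and Aldh1a1 (0.998) of 15276 genes. For Pdk4 they were Serpina3n, Epb41l2 and Tsc22d3, all at r = 0.996. For Pdp1 they were Crispld1 (0.989), Cd109 (0.985) and Dlk1 (0.982). Crispld1 averaged 401 ± 143 normalized counts with vehicle (SD, n = 4) and 822 ± 332 with aldosterone, with a wide spread within each group as for Pdp1.

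Markers of other cell types that use these genes were measured beside them. In bulk RNA, more cells of a type and more RNA per cell cannot be told apart. The sum of 5 adipocyte markers was between 932 and 1130 normalized counts with aldosterone and between 183 and 275 with vehicle, and the mean of each of the 5 was higher with aldosterone. Fabp4 averaged 837 against 153, Plin1 98.9 against 30.6, Cidec 20.47 against 4.91, Adipoq 50.6 against 34.2 and Lep 0.477 against 0. The sum of 5 endothelial markers was between 124 and 262 with aldosterone and between 34.8 and 92.8 with vehicle, mostly from Kdr (170 against 45.7). Cdh5 averaged 15.4 against 9.61 and Emcn 4.56 against 2.73, while Pecam1 averaged 2.89 against 6.64 and Tie1 0.699 against 1.41. The Schwann cell list (4 markers) lay between 318 and 458 with aldosterone and between 243 and 327 with vehicle, so these groups overlapped. Its sum came mostly from S100b (315 with aldosterone against 221 with vehicle). The macrophage list of 6, at 209 to 248 and 203 to 296, and the pericyte and smooth muscle list of 4, at 6936 to 11214 and 8760 to 12295, also overlapped between those groups. The part of these markers in the results for Pdk4, Pdp1 and Glul was not tested.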

How the data were processed

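RNA-seq libraries from 12 fibroblast cultures were analysed from 3 tables, 1 per pair of treatments. The signal values that the authors deposited are normalized counts, each library's gene counts over its size factor. Columns with the authors' deposited log2 fold changes, p-values and other annotation came with them, and of these the gene length alone was used. The paper names HISAT2 and mm9, while the submitters' processing notes list HISAT2 2.0.5, featureCounts 1.5.0-p3 and mm39. Of the 9 members, 0 start where NCBIM37 (mm9) places them, so no sequence was read by these coordinates. Dividing each column by its step gave whole reads for 100% of values (tolerance 0.1), and for 2 columns the step came from the library's other table.

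Each pair was tested with limma 3.58.1 (R 4.3.3, with trend) on log2(value + 1) over every gene of its table, with treatment alone in the model. Levels of all 12 libraries were put on a common median-of-ratios scale. A call is an adjusted p of at most 0.05. The test was checked on simulated counts drawn independently for each library. That check does not cover libraries that deviate together by sample number, as these do. The members and lists were chosen with earlier results of these data known. Named are the members, up to 3 called genes with the largest fold change per list and comparison (mean of 10 or more), Fkbp5, Tsc22d3 and Per1, and the 3 genes most like Pdk4, Glul and Pdp1. Some pathway genes that are counted in the lists are not reported here by name and are left out of the plot. Alternatives were edgeR 4.0.16 with TMM and DESeq2 1.42.0 on recovered reads, TMM scaling, a pseudocount of 0.5, a minimum mean of 10, a replicate block for sample number, and leaving out each library. Libraries with the same sample number deviated together from their group means (r between 0.134 and 0.283 in 24 pairs over 15276 genes), so the number pairs libraries by the data. The 24 pairs of unlike number had r between -0.302 and -0.156. Their negative mean follows from taking deviations from group means and is no separate evidence. Exact permutation tests used scipy 1.17.1, and figures matplotlib 3.10.9 in Python 3.11.15.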

Additional observations from a re-analysis of the deposited data

Results flagged for a closer look

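Of 27 groups of 4 libraries (9 members in 3 treatments), 1 held a library that stood apart from the other 3 by Dixon's test at the 95% level. In the spironolactone group, library 2-1 had 253 normalized counts of Pdk4, and the other 3 had between 284 and 290. The gap was 0.842 of the group's range. Chance flags about 1 group in 20, and the library was, like the other 3, below all aldosterone libraries.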

How the results depend on the processing

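Across edgeR, DESeq2, TMM scaling, a pseudocount of 0.5, a minimum mean of 10 and a replicate block for sample number, the members called stayed at 4 or 5 in both comparisons with aldosterone and at 0 between spironolactone and vehicle. Between the sample numbers 1 member was called, except by edgeR, which called 2 (Pdp1 and Glul). The replicate block called 41 other pathway genes against vehicle in place of 24, and of all genes 4563 in place of 2847 against vehicle, 3974 in place of 2454 against spironolactone, and 97 in place of 0 between spironolactone and vehicle (13 by DESeq2, 0 by edgeR, 1251 at an unadjusted p under 0.05 by limma). With 1 library left out these counts of all genes were 1766 to 2246 and 1565 to 1865 in the comparisons with aldosterone, and 724 to 1112 in place of 2255 between the sample numbers. In the same fits, which hold fewer samples, the members called against vehicle ranged from 2 to 3. The members' log2 differences that changed sign were those near 0 that were not called. Without 1 library, spironolactone against vehicle ranged from -0.0549 to 0.0157 for Pdk1, -0.0033 to 0.0714 for Pdk3, -0.11 to 0.0111 for Pdk4 and -0.29 to 0.0564 for Pdp1, sample number 2 against 1 ranged from -0.0051 to 0.14 for Pdk4 and -0.11 to 0.0936 for Mpc1, and aldosterone against spironolactone ranged from -0.0197 to 0.0605 for Pdk3 and -0.0625 to 0.0602 for Mpc2. The block changed the calls of Pdk2 against vehicle and of Pdha1 against spironolactone, and no other member's call, and edgeR, DESeq2 and the minimum mean of 10 also called Pdha1 against spironolactone. With 2 mice and 4 plates per treatment, the spread between animals is poorly known. Mpc1 had the fewest reads of the members, with 120 to 208 normalized counts per library.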
